A study of Mus musculus with 24 samples.

Results

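Transcripts that mark the endothelium of the heart and its specialised inner lining, the endocardium, were followed through a mouse series on the loss of the mitochondrial anchor genes Rhot1 and Rhot2. The 10 markers were Pecam1, Cdh5, Kdr, Flt1, Tek, Tie1, Emcn, Plvap, Cytl1 and Nfatc1. They were chosen by gene symbol, all 10 were found among the 39396 genes of the deposited count table, and all 10 passed the filter on low counts that kept 17352 genes. Polyadenylated RNA of mouse left ventricle had been sequenced in 24 libraries, 6 in each of 4 groups. The groups were controls and DKO mice labelled day 1 of age, and controls and DKO mice labelled day 7. Per the labels, DKO mice had lost both Rhot1 and Rhot2 in cardiomyocytes from embryonic life on, so endothelial cells were not the cells targeted by the deletion. The promoter behind the deletion, the alleles that the controls carried and the strain are not given in the sources used here. No treatment other than the genotype is named. The source is called cardiomyocyte in the labels, whereas the extraction protocol used tissue of the left ventricle, and all 10 vessel markers had counts in every library.

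Endothelial cells line every blood vessel and are held together at their junctions by VE-cadherin and PECAM-1. Their growth and rest are set by separate families of tyrosine kinase receptors, those for the vascular endothelial growth factors (VEGF) and those of the angiopoietin pathway. In the ventricle most of these cells form the capillaries between the cardiomyocytes, while the endocardium faces the chamber and shares many of their genes.

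Rhot1, a target of the deletion, ranged from 128.8 to 173.3 CPM over controls and from 106.7 to 136.5 CPM over DKO at labelled day 1, and from 144.0 to 164.0 and 122.9 to 150.7 CPM at labelled day 7, with overlap at both. It was lower in DKO by edgeR at labelled day 1 (−0.42 ± 0.08, adjusted p = 0.00109) and not called at labelled day 7 (−0.25 ± 0.06, adjusted p = 0.0871). Rhot2 had 0 counts in every library, controls included, so its loss cannot be checked in these counts. Total counts per library were 30318018 to 45806171 at labelled day 1 and 17334498 to 30453874 at labelled day 7. Levels are given as CPM, counts scaled to library size and by TMM (trimmed mean of M values), as mean ± SD over n = 6 libraries, and every fold change is log2 with its standard error (SE). A gene is called where its edgeR adjusted p over all 17352 genes was under 0.05. Whether every library stands for its own animal is not stated, and p-values speak only for the spread among libraries, which may be partly technical. The atrial gene Myl7 was at 1.34 to 304 CPM in controls labelled day 1, over 50 CPM in 4 of the 6, and at 0.564 to 17.3 CPM in DKO labelled day 1. At labelled day 7 its range was 94.6 to 201 CPM among controls and 94.5 to 1043 CPM among DKO. Y-linked transcripts were found in every one of the 12 libraries of labelled day 1, but in 2 of 6 of each group of labelled day 7. The labels of age are used as given, although Igf2, H19, Dlk1 and Tnni1, which are known to fall in the mouse heart after birth, were higher at labelled day 7 (Igf2 at 222 ± 64.6 CPM in controls labelled day 1 and 752 ± 76.2 CPM in controls labelled day 7).

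All 10 markers were measured in all 24 libraries, and per kilobase of exon Cdh5 had the highest mean level in each of the 4 groups. Cdh5 (ENSMUSG00000031871, chromosome 8) codes for VE-cadherin, the adhesion molecule of endothelial junctions. Its level per kilobase was 63.2 ± 4.87 CPM in controls labelled day 1 and 39.0 ± 3.52 CPM in controls labelled day 7. In controls labelled day 1 it was followed by Tie1 at 37.5 ± 4.39, Pecam1 at 34.8 ± 3.32, Tek at 30.9 ± 2.38 and Kdr at 28.6 ± 1.28 CPM per kilobase. Each of these 4 overlapped its neighbour in the order in library ranges, while Cdh5 stood apart above them. A lower tier held Emcn at 10.9 ± 1.69 and Flt1 at 8.03 ± 1.85 CPM per kilobase, whose ranges overlapped. Nfatc1 at 4.99 ± 0.547, Cytl1 at 4.34 ± 1.36 and Plvap at 2.63 ± 0.716 CPM per kilobase closed the order, each overlapping the next. The order was the same in DKO labelled day 1, where Pecam1 and Tek, and Emcn and Flt1, also stood apart. At labelled day 7 Plvap had moved from the last to the second place in both genotypes, at 28.8 ± 3.15 CPM per kilobase in controls and 34.1 ± 6.02 in DKO, and overlapped Cdh5 above it and Tie1 below it. Cytl1 was then last, at 4.73 ± 0.830 in controls and 5.75 ± 1.62 CPM per kilobase in DKO.

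**Figure D1:**
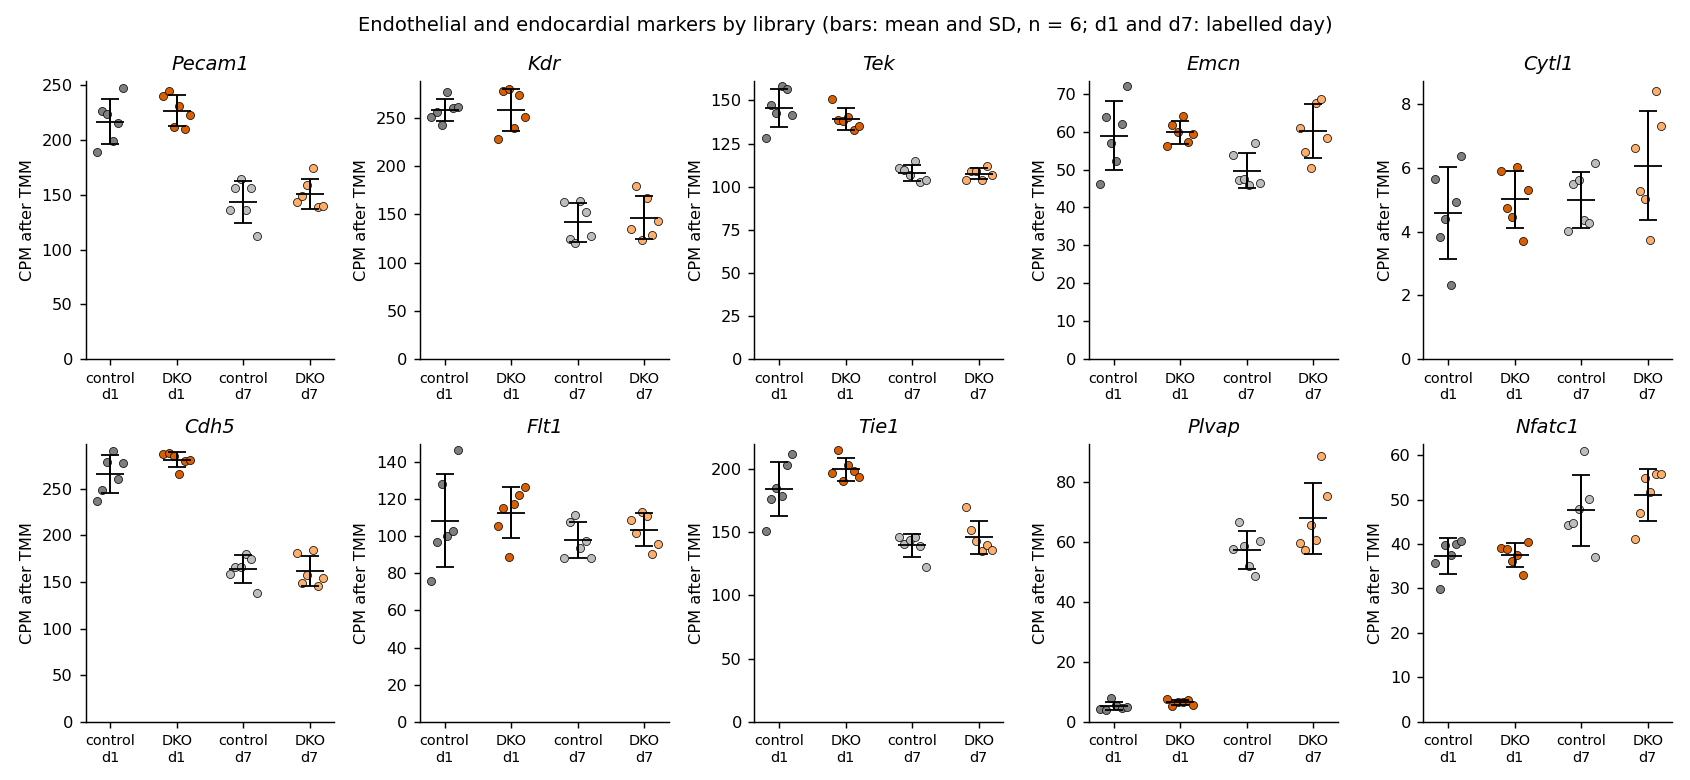
Level of each marker in every library, in CPM after TMM on a linear axis from 0, by group (d1 and d7 are the labelled days); points are libraries and bars are the mean and SD of 6. Control and DKO points overlap in all 10 panels at each labelled day, while Plvap rises from 3.82 to 7.86 CPM in controls labelled day 1 to 48.7 to 66.4 CPM in controls labelled day 7.

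The first comparison asks whether the loss of Rhot1 and Rhot2 in cardiomyocytes went with a change in vessel cell transcripts at labelled day 1. No marker was called, 0 of 10, where 17.6% of all genes were called in this comparison (9.81% higher and 7.79% lower in DKO), and none had an unadjusted p under 0.05. DESeq2 and limma-voom called 0 as well. Log2 fold changes of the 10 ran from −0.07 for Tek to 0.30 for Plvap, with a median of 0.05 beside −0.02 over all genes. Control and DKO libraries overlapped for all 10 markers, whereas they did not for 9.4% of all genes. In bulk tissue, fewer cells of a type and less RNA per cell cannot be told apart.

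At labelled day 1 the junction genes lay close together in the genotypes. Cdh5 had its lowest, median and highest library at 237, 269 and 291 CPM in controls, and at 266, 283 and 289 CPM in DKO. All 6 DKO libraries lay above the control mean, within the control range. The difference was 0.08 ± 0.06 (95% interval −0.04 to 0.20, adjusted p = 0.384). Pecam1 (ENSMUSG00000020717, chromosome 11), the adhesion molecule CD31 of endothelial cells and platelets, was at 217 ± 20.7 CPM among controls and 227 ± 14.3 CPM among DKO, a difference of 0.06 ± 0.07 (−0.08 to 0.20).

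Kdr (ENSMUSG00000062960, chromosome 5) codes for VEGFR2, which carries most of the signal of VEGF to divide and migrate, and Flt1 (ENSMUSG00000029648, chromosome 5) for VEGFR1, whose soluble form traps VEGF. The sequences ahead of their starts are shown because this pair of receptors shares a ligand and because their counts shifted against each other with labelled age. They are the 250 bases before each RefSeq start, 5′ to 3′ on the gene's strand in GRCm38.p6, from chr5:75978456-75978705, minus strand, and chr5:147726012-147726261, minus strand. Capitals mark AGGAAG or its reverse complement CTTCCT, letters that ETS factors of endothelial cells can bind.
Kdr: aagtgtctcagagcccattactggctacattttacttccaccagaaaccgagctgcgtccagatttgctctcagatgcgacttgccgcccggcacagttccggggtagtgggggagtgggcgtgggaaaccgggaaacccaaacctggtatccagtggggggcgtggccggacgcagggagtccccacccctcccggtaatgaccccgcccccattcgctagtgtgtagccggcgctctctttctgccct
Flt1: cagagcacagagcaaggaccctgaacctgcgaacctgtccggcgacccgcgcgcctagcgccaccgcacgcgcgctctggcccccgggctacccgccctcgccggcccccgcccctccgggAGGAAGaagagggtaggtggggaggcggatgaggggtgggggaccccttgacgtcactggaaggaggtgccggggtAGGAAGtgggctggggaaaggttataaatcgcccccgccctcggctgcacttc
The Flt1 window held the motif 2 times, 129 and 53 bases before the start, and the Kdr window did not hold these letters.

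Between the genotypes at labelled day 1 Kdr had almost the same mean, at 258 ± 11.5 CPM among controls and 258 ± 22.0 CPM among DKO, and the 95% interval of its log2 fold change was −0.13 to 0.12. Flt1 had a wide spread among controls, with its lowest, median and highest library at 76.1, 102 and 146 CPM. DKO libraries spanned 88.8, 117 and 127 CPM, inside that range, and the difference was 0.05 ± 0.14 (−0.25 to 0.34, adjusted p = 0.858). Without the 4 controls over 50 CPM of Myl7, which leaves 2 controls, the Flt1 value was −0.29 (adjusted p = 0.112). With the mean of the atrial markers as a covariate over the 12 libraries, no marker was called. Beyond these fits, the part of Myl7-rich tissue in these values was not tested.

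Tek (ENSMUSG00000006386, chromosome 4) codes for TIE2, the receptor of the angiopoietins, and Tie1 (ENSMUSG00000033191, chromosome 4) for its partner, which binds no angiopoietin by itself. Their windows are printed as the other pair of related receptors, with the same meaning of the capitals, from chr4:94739039-94739288, plus strand, and chr4:118489850-118490099, minus strand, GRCm38.p6.
Tek: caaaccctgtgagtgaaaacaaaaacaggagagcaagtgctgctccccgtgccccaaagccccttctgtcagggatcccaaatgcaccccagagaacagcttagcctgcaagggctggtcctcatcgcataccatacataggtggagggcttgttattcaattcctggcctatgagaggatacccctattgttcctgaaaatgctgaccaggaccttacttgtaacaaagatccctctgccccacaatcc
Tie1: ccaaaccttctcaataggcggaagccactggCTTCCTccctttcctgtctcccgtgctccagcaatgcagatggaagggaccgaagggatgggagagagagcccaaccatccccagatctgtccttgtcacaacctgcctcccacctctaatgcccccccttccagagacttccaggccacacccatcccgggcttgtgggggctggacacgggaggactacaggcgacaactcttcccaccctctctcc
The Tie1 window held the motif once, on the strand opposite to the gene and 219 bases before the RefSeq start, and the Tek window did not hold these letters. The GENCODE start of Tie1, at base 118490061, lies inside this window, so the distance depends on the start used. Of the 10 markers 6 had a window in the RefSeq table, and 4 of these (Flt1, Tie1, Emcn and Cytl1) held AGGAAG or CTTCCT, beside 29.5% of all 32851 windows of that length. The letters ACAAT or ATTGT, bound by SOX factors, were in the windows of Tek and Emcn, beside 27.7% of all windows. AGATAA or TTATCT for GATA factors (9.99% of all windows) and GTAAACA or TGTTTAC for forkhead factors (3.17%) were in none of the 6. Both strands were searched, and a match is a description of the letters only.

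Tek at labelled day 1 was at 146 ± 11.2 CPM among controls and 139 ± 6.17 CPM among DKO, with 5 of 6 DKO libraries below the control mean (−0.07 ± 0.06, interval −0.19 to 0.05). Tie1 was at 184 ± 21.6 CPM among controls and 200 ± 8.81 CPM among DKO, with all 6 DKO libraries above the control mean (0.11 ± 0.07, interval −0.04 to 0.26). Neither was called, with adjusted p of 0.447 for Tek and 0.323 for Tie1.

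The remaining markers were not called at labelled day 1 either. Emcn (ENSMUSG00000054690, chromosome 3), which codes for endomucin, a sialomucin of capillary, venous and endocardial cells, was at 58.9 ± 9.12 CPM among controls and 59.8 ± 2.96 CPM among DKO (0.02 ± 0.09). Nfatc1 (ENSMUSG00000033016, chromosome 18), a calcineurin-regulated transcription factor of the endocardium and of valve formation, was at 37.3 ± 4.09 and 37.5 ± 2.66 CPM (0.004 ± 0.077). Cytl1 (ENSMUSG00000062329, chromosome 5), which codes for a small secreted protein and was included as an endocardial marker, was scarce at 4.59 ± 1.44 and 5.03 ± 0.896 CPM, with a wide interval (−0.30 to 0.56).

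Plvap (ENSMUSG00000034845, chromosome 8) had the largest value of the 10 at labelled day 1. It codes for the protein that forms the diaphragms of caveolae, fenestrae and transendothelial channels. Its lowest, median and highest library were at 3.82, 4.87 and 7.86 CPM in controls and at 5.37, 6.58 and 7.44 CPM in DKO. All 6 DKO libraries lay above the control mean, and control 22 was above all of them. The log2 fold change was 0.30 ± 0.16 (−0.03 to 0.64, adjusted p = 0.215). Without control 22 Plvap was called, at 0.46 with an edgeR adjusted p of 0.0218, and without the 4 controls over 50 CPM of Myl7, where 22 is 1 of the 2 that remain, its value was 0.01.

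At labelled day 7 again 0 of 10 markers were called between the genotypes, where 1.02% of all genes were called (0.686% higher and 0.334% lower in DKO), and DESeq2 and limma-voom called 0. Log2 fold changes ran from −0.03 for Cdh5 to 0.27 for Cytl1, with a median of 0.065 beside −0.01 over all genes. Emcn and Plvap, the capillary sialomucin and the diaphragm protein, had unadjusted p under 0.05. Libraries of the genotypes overlapped for all 10 markers, whereas they did not for 1.69% of all genes.

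Emcn had its lowest, median and highest library at 45.9, 47.4 and 57.0 CPM in controls labelled day 7 and at 50.4, 59.7 and 68.7 CPM in DKO. All 6 DKO libraries lay above the control mean of 49.7 ± 4.63 CPM, and the upper controls reached into the DKO range. The log2 fold change was 0.26 ± 0.08 (0.08 to 0.44, unadjusted p = 0.00678, edgeR adjusted p = 0.169). Plvap was at 48.7, 58.1 and 66.4 CPM in controls and at 57.4, 63.0 and 88.4 CPM in DKO. Its 2 highest DKO libraries, m1124 and m1128, were also those with over 500 CPM of Myl7. They were also the only DKO libraries labelled day 7 with Y-linked transcripts, and the parts of these traits cannot be told apart. The log2 fold change of Plvap was 0.23 ± 0.11 (0.01 to 0.46, unadjusted p = 0.0445, edgeR adjusted p = 0.34). Without m1124 and m1128 the Plvap value was 0.08 and that of Emcn 0.23, and 0 markers were called.

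The junction genes and the receptors were not called between the genotypes at labelled day 7. Cdh5 was at 164 ± 14.8 CPM among controls and 162 ± 16.3 CPM among DKO, and Pecam1 at 144 ± 19.02 and 151 ± 13.7 CPM. Kdr was at 142 ± 20.2 and 147 ± 22.4 CPM, with an interval of the log2 fold change of −0.20 to 0.27. Tek had the narrowest interval of the 10, −0.13 to 0.09, around 108 ± 4.56 CPM among controls and 108 ± 3.16 CPM among DKO. Tie1 was at 140 ± 9.05 and 146 ± 13.3 CPM and Flt1 at 97.9 ± 9.81 and 104 ± 8.97 CPM. Nfatc1 was at 47.6 ± 7.91 and 51.1 ± 5.90 CPM, and Cytl1 at 4.99 ± 0.876 and 6.07 ± 1.72 CPM (interval −0.12 to 0.66).

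The difference of the genotype effect between the labelled ages was called for 0 of 10 markers, where 1.08% of all genes were called (0.311% with a higher and 0.766% with a lower effect at labelled day 7). No marker had an unadjusted p under 0.05 for it, and DESeq2 and limma-voom called 0. The values ran from −0.10 ± 0.10 for Cdh5 to 0.25 ± 0.13 for Emcn (interval −0.01 to 0.51, adjusted p = 0.462).

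**Figure D2:**
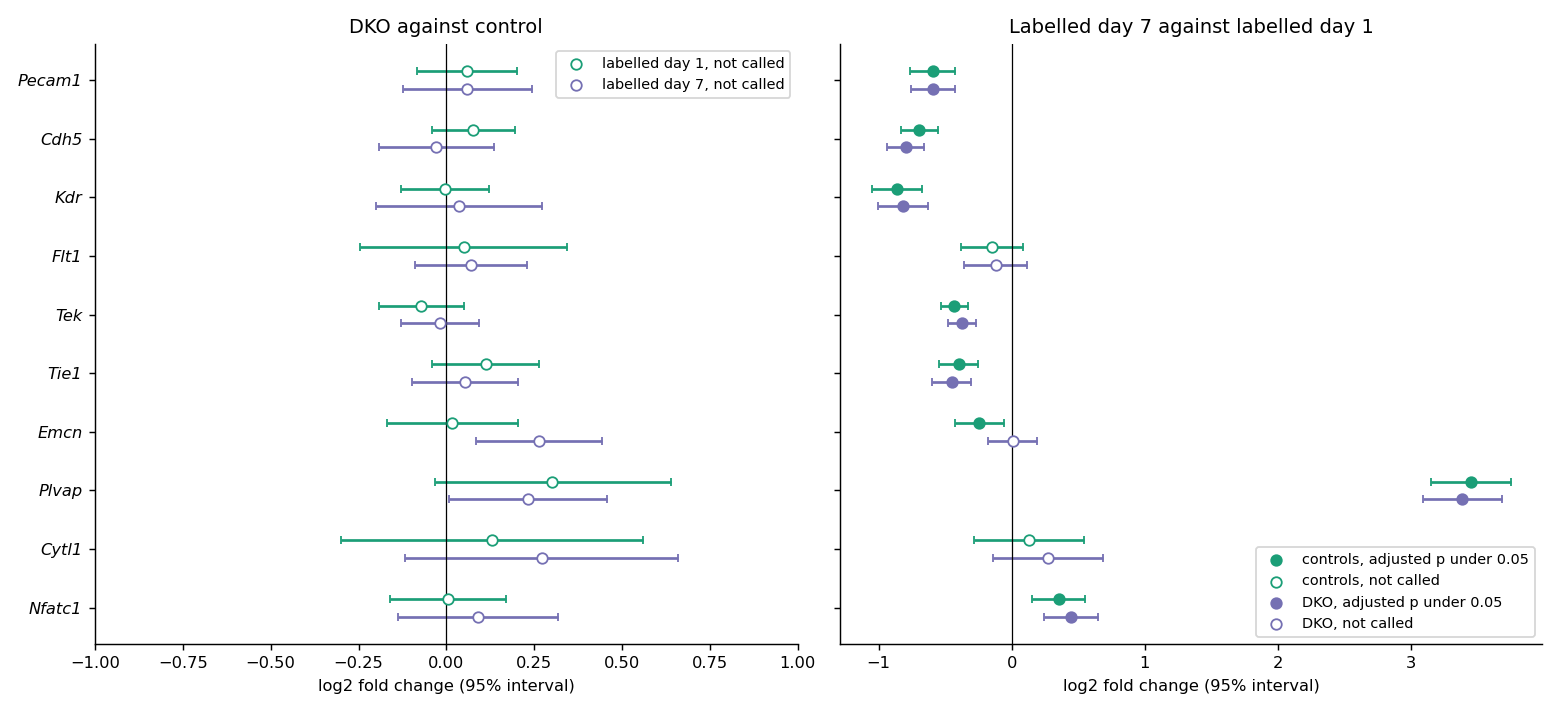
Log2 fold changes of the 10 markers with 95% intervals, DKO against control in each labelled age on the left and labelled day 7 against labelled day 1 in each genotype on the right; filled points have an edgeR adjusted p under 0.05. All genotype points are open and lie between −0.07 and 0.30, while Plvap stands apart on the right at 3.45 in controls and 3.38 in DKO.

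Labelled age went with differences in most of the markers, which ran in opposite directions and were by far the largest for Plvap. In controls Pecam1, Cdh5, Kdr, Tek, Tie1 and Emcn fell and Plvap and Nfatc1 rose from labelled day 1 to labelled day 7, 8 of 10 called where 53.1% of all genes were called. In DKO 7 of 10 were called where 52.6% of all genes were called, again Pecam1, Cdh5, Kdr, Tek and Tie1 with a fall and Plvap and Nfatc1 with a rise. These counts are to be read against that background, in which 27.4% of all genes rose and 25.6% fell in controls, and 27.3% rose and 25.3% fell in DKO. Group ranges did not overlap for 6 markers in controls and 7 in DKO, beside 26.8% and 30.8% of all genes. Controls and DKO were measured in separate libraries, and each genotype's values are given for itself. Labelled age also went with total counts, the share of libraries holding Y-linked transcripts and the form of the library names (bare numbers, or numbers after an m). In DKO it went with Myl7 too, at 0.564 to 17.3 CPM at labelled day 1 and 94.5 to 1043 CPM at labelled day 7, without overlap. These cannot be told apart over all libraries. Each rise or fall is stated for the labels as given, and would be reversed if the labels of age were exchanged. The levels of Igf2, H19, Dlk1 and Tnni1 given above bear on this, and it was not tested. Among libraries with Y-linked transcripts alone, 6 markers were called in controls, without Emcn and Nfatc1, and 7 in DKO. In DKO labelled day 7 these libraries were m1124 and m1128, the highest of their group in Myl7.

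Both junction genes fell. Cdh5 had its lowest, median and highest control library at 237, 269 and 291 CPM at labelled day 1 and at 138, 166 and 181 CPM at labelled day 7. The highest library labelled day 7 thus lay well below the lowest labelled day 1. Its log2 fold change was −0.70 ± 0.07 in controls (adjusted p = 4.7e-09) and −0.80 ± 0.07 in DKO (5.56e-10). Pecam1 went from 189, 220 and 247 CPM to 113, 146 and 164 CPM in controls, again without overlap. It fell by 0.60 ± 0.08 on the log2 scale in controls and by 0.59 ± 0.08 in DKO.

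Of the VEGF receptors, whose start windows are printed above, Kdr was called with labelled age and Flt1 was not. Kdr had the lowest log2 fold change of the 10 markers in both genotypes. Its lowest, median and highest control library were at 243, 258 and 277 CPM at labelled day 1 and at 120, 140 and 164 CPM at labelled day 7, without overlap. The log2 fold change was −0.87 ± 0.09 in controls (adjusted p = 1.78e-08) and −0.82 ± 0.09 in DKO (4.48e-08). Flt1 was at 76.1, 102 and 146 CPM and at 88.3, 95.8 and 112 CPM in the same libraries, and the ranges overlapped. It was not called in either genotype, at −0.15 ± 0.11 in controls (interval −0.38 to 0.09, adjusted p = 0.287) and −0.12 ± 0.11 in DKO (−0.36 to 0.11, adjusted p = 0.381). The value in controls depended on which libraries of labelled day 1 were used. Without control 13, the lowest in Flt1 and the highest in Myl7, Flt1 was called at −0.25 (adjusted p = 0.0393). Without all 4 controls over 50 CPM of Myl7 it was called at −0.52 (adjusted p = 0.000951). The latter fit keeps controls 22 and 62, at 1.34 and 16.9 CPM of Myl7, beside 94.6 to 201 CPM in controls labelled day 7. It thus makes the labelled ages less alike in Myl7.

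Both angiopoietin receptors fell. In controls Tek had its lowest, median and highest library at 128, 145 and 159 CPM at labelled day 1 and at 103, 108 and 115 CPM at labelled day 7. Tie1 was at 151, 182 and 212 CPM and then at 122, 143 and 146 CPM. Neither pair of ranges overlapped. Tek fell by 0.43 ± 0.05 on the log2 scale in controls and by 0.37 ± 0.05 in DKO, and Tie1 by 0.40 ± 0.07 in controls and by 0.45 ± 0.07 in DKO (largest adjusted p of the 4 values, 3.69e-05).

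Plvap rose. Its lowest, median and highest library were at 3.82, 4.87 and 7.86 CPM in controls labelled day 1 and at 48.7, 58.1 and 66.4 CPM in controls labelled day 7. In DKO they were at 5.37, 6.58 and 7.44 CPM and then at 57.4, 63.0 and 88.4 CPM. Every library labelled day 7 was several times above every library labelled day 1. The change was 10.9-fold in controls (log2 3.45 ± 0.15, adjusted p = 4.93e-15) and 10.4-fold in DKO (3.38 ± 0.15, adjusted p = 1.38e-14), the third and the second smallest p of 17352 genes. Without the 4 controls over 50 CPM of Myl7, which makes the labelled ages less alike in Myl7, the control value was 3.12 (adjusted p = 2.75e-10). About 32.3% of the exonic bases of Plvap, 641 of 1987, lie within Gtpbp3 on the opposite strand, and the kit does not mark strand. Gtpbp3 was at 14.8 ± 1.65 CPM in controls labelled day 1 and 13.0 ± 0.981 CPM in controls labelled day 7, a log2 change of −0.18 ± 0.10 that was not called (adjusted p = 0.139).

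Of the other markers, Nfatc1 rose in both genotypes, Emcn was called in controls and Cytl1 in neither genotype. Nfatc1 had its lowest, median and highest library at 33.0, 38.2 and 40.4 CPM in DKO labelled day 1 and at 41.1, 53.2 and 55.8 CPM in DKO labelled day 7, without overlap. In controls it went from 29.8, 38.6 and 40.7 CPM to 37.2, 46.4 and 61.0 CPM, with overlap. The log2 fold change was 0.35 ± 0.10 in controls (adjusted p = 0.00359) and 0.45 ± 0.10 in DKO (0.000419). The control call was lost without the controls over 50 CPM of Myl7 (0.21, adjusted p = 0.225), a fit that makes the labelled ages less alike in Myl7. Emcn fell in controls by 0.25 ± 0.09 (adjusted p = 0.0231) and was at 0.01 ± 0.09 in DKO (adjusted p = 0.955), and the difference between these, the same contrast as the difference of the genotype effects, was not called. The Emcn call in controls was lost without control 14, control 62 or control m1088 (adjusted p 0.0538, 0.0861 and 0.0508). Cytl1 was at 0.13 ± 0.20 in controls and 0.27 ± 0.20 in DKO and was not called.

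Ratios between markers within a library do not depend on library scaling, so 6 were compared in 4 comparisons, by exact two-sided permutation tests over all splits of 12 libraries into 6 and 6, adjusted over the 24 tests. The threshold was passed by 10 of 12 tests between labelled ages and 1 of 12 between genotypes. Ratios to Cdh5 share its counts, so these tests are not independent of each other. A ratio here is a log2 ratio of counts, and only its difference between groups is read, because counts also depend on transcript length. The smallest p that these splits can give is 0.00216.

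With labelled age the balance of the VEGF receptors shifted towards Flt1. The Flt1/Kdr ratio spanned −1.73 to −0.84 in controls labelled day 1 and −0.88 to −0.11 in controls labelled day 7, touching at the edge. The difference was 0.75, or 1.69-fold (exact permutation p = 0.00433, adjusted p = 0.013). In DKO it spanned −1.66 to −0.99 and then −0.82 to −0.13 without overlap, a difference of 0.71 (exact permutation p = 0.00216, adjusted p = 0.00742). The ratio of the angiopoietin receptors, Tek/Tie1, did not pass with labelled age, at −0.04 in controls and 0.08 in DKO (exact permutation, adjusted p = 0.693 and 0.398), though it passed in DKO without m1026 (0.14, adjusted p = 0.039).

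Against Cdh5, the shared junction gene, the ratios of the other 4 markers all rose with labelled age in both genotypes. Cdh5 itself fell (log2 −0.70 in controls and −0.80 in DKO), and this fall enters each of these ratios. Emcn alone was at −0.25 in controls and 0.01 in DKO, and Cytl1 at 0.13 and 0.27. Their ratios thus rose without a called rise of either gene. Plvap/Cdh5 rose by 4.18 on the log2 scale in controls and in DKO, or 18.1-fold, and neither pair of ranges overlapped (exact permutation, adjusted p = 0.00742 each). Nfatc1/Cdh5 spanned −3.06 to −2.71 in controls labelled day 1 and −1.90 to −1.56 in controls labelled day 7. It rose by 1.04 in controls and 1.24 in DKO, 2.06-fold and 2.36-fold. Emcn/Cdh5 rose by 0.46 in controls and 0.80 in DKO, and Cytl1/Cdh5 by 0.87 and 1.04 (exact permutation, adjusted p of these 6 tests 0.00742 to 0.0156). With controls 22 and 62 alone, those under 50 CPM of Myl7, tests of controls labelled day 1 have 28 splits, whose smallest p is 0.0357, and cannot pass after adjustment. The differences in controls were then 0.35 for Flt1/Kdr, 3.95 for Plvap/Cdh5, 0.99 for Nfatc1/Cdh5, 0.40 for Emcn/Cdh5 and 0.67 for Cytl1/Cdh5. Keeping these controls alone makes the labelled ages less alike in Myl7.

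Between genotypes, Emcn/Cdh5 was higher in DKO labelled day 7. It spanned −1.97 to −1.55 in controls and −1.65 to −1.09 in DKO, with overlap, and the difference was 0.29, or 1.22-fold (exact permutation p = 0.0173, adjusted p = 0.0378). Leaving out 1 of the 12 libraries of labelled day 7 at a time ended the call in 7 of 12 cases (controls m1064, m1066 and m1088, and DKO m1046, m1092, m1124 and m1128), with adjusted p of 0.0189 to 0.0736 and differences of 0.22 to 0.33. Without m1124 and m1128, the DKO libraries over 500 CPM of Myl7, the difference was 0.195 and did not pass. These were also the only DKO libraries labelled day 7 with Y-linked transcripts. Leaving out the controls over 50 CPM of Myl7 at labelled day 1, none of which enters this test, kept the difference at 0.29 but moved its p adjusted over the 24 tests to 0.0693. Tek/Tie1 at labelled day 1 was −0.19 in DKO against control (exact permutation p = 0.026, adjusted p = 0.0519) and did not pass. It passed without control 62 (−0.24, adjusted p = 0.0115) or DKO 29 (−0.22, adjusted p = 0.0433). It also passed without m1026, which does not enter this test, at an unchanged −0.19 with a p adjusted over the 24 tests of 0.048. Plvap/Cdh5, at 0.26 in the same comparison, passed without control 22 (0.37, adjusted p = 0.0283).

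**Figure D3:**
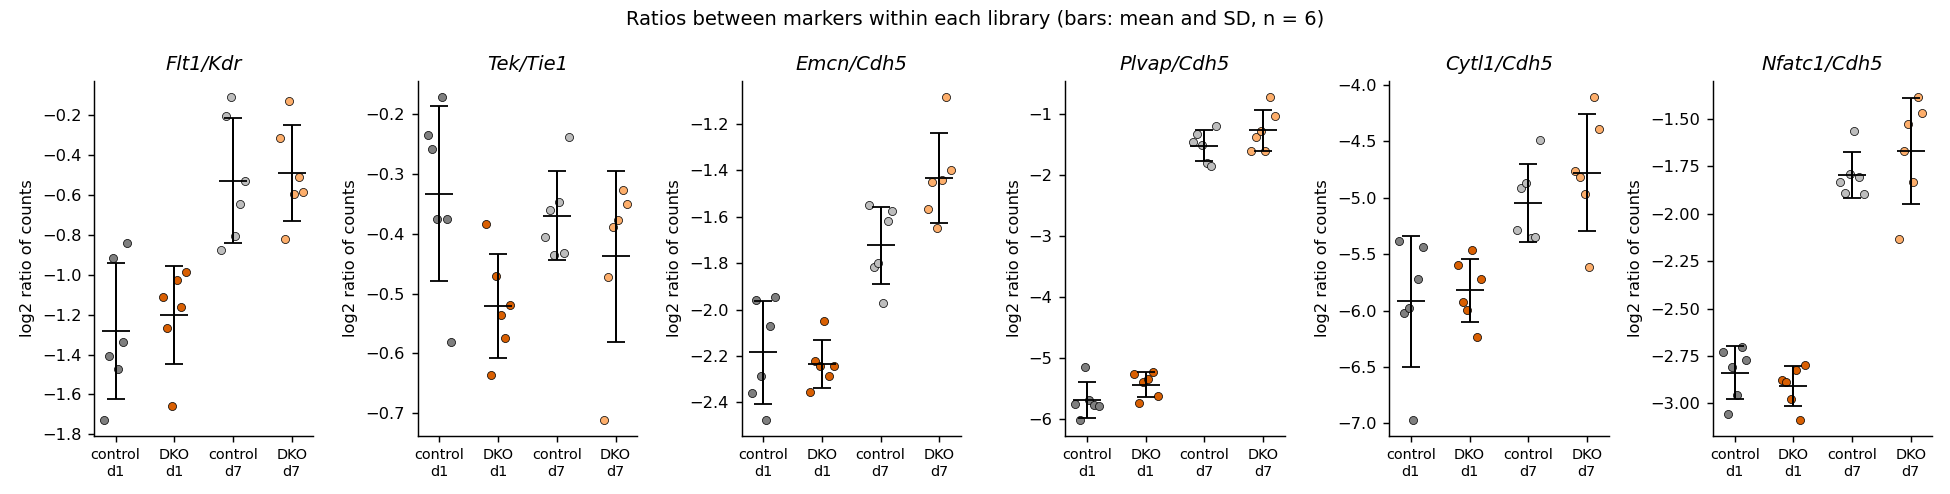
Log2 ratio of counts of 6 marker pairs within each library, by group (d1 and d7 are the labelled days), each panel on its own axis that does not start at 0; points are libraries and bars are the mean and SD of 6. Plvap/Cdh5 lies between −6.02 and −5.15 in controls labelled day 1 and between −1.85 and −1.20 in controls labelled day 7, and Tek/Tie1 overlaps in all 4 groups.

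Other genes of the vessel wall were counted in 9 endothelial lists, chosen for their roles and without the 10 markers. Over these lists 67 of 89 genes were called with labelled age in controls and 62 in DKO, where 53.1% and 52.6% of all genes were called. Each list's counts are to be read beside the 27.4% of all genes that rose and the 25.6% that fell in controls, and the 27.3% and 25.3% in DKO. Of 13 junction and adhesion genes tested, 9 fell and 0 rose in controls (10 and 0 in DKO), with the adhesion molecule gene Jam2 at −1.83 ± 0.10 in controls and Cldn5, the claudin of endothelial tight junctions, at −1.26 ± 0.15. Of 13 endothelial transcription factors 10 fell and 2 rose in controls (9 and 2 in DKO), with Sox18 at −2.01 ± 0.17. Of 12 coronary capillary markers 11 fell and 0 rose in controls (9 and 1 in DKO), with Meox2 at −1.42 ± 0.10. The medians of these 3 lists in controls were −0.68, −0.55 and −0.90, beside 0.01 over all genes and −0.32 for the 10 markers.

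Of 12 genes of the endocardial list 9 rose and 1 fell in controls (8 and 1 in DKO), where 27.4% of all genes rose and 25.6% fell in controls (27.3% and 25.3% in DKO). The median of the list in controls was 0.42. Npr3, the natriuretic peptide clearance receptor, rose from 3.08 ± 0.540 to 14.5 ± 2.99 CPM in controls (2.23 ± 0.23), and the transcription factor gene Gata5, at 0.155 ± 0.0896 CPM in controls labelled day 1, rose by 2.70 ± 0.35. The gene that fell was Tmem100 (−1.63 ± 0.24). Of the markers that endocardial cells are known for, Nfatc1 rose in both genotypes, Emcn fell in controls, and Cytl1 was not called. Of 4 venous genes 2 rose and 1 fell in controls (3 and 0 in DKO), with Ephb4 at 0.81 ± 0.09, and of 10 arterial genes 1 rose and 5 fell (1 and 4 in DKO). Notch genes gave 2 up and 5 down of 10 in controls (1 and 4 in DKO), with Hey2, which cardiomyocytes also express, at 3.20 ± 0.22.

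Among ligands and co-receptors of the marker receptors, Vegfa, the main ligand of Kdr and Flt1, was at 8.69 ± 1.24 CPM in controls labelled day 1 and 8.56 ± 2.38 CPM in controls labelled day 7 and was not called. Of the 9 genes of the VEGF list 1 rose and 4 fell in controls (1 and 3 in DKO), a count of calls about that of the background of 53.1% of all genes in controls and 52.6% in DKO. In controls the co-receptor Nrp2 was at −1.29 ± 0.13 and the ligand gene Vegfd at −1.09 ± 0.25. Of 6 genes of the angiopoietin list 1 rose and 3 fell in controls (1 and 4 in DKO). The gene that rose was Angpt1, the ligand that activates Tek, at 1.24 ± 0.13 in controls and 2.04 ± 0.14 in DKO, opposite to its receptor. Angpt2, the other main ligand of Tek, had 0 counts in all 24 libraries, and all its exonic bases lie within Mcph1 on the opposite strand. Esm1, Ecscr and Lyl1, other genes of these lists, also had 0 counts throughout, and all their exonic bases too lie within genes on the opposite strand. Whether these zeros mean absent transcripts or reads lost in counting was not tested.

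**Figure D4:**
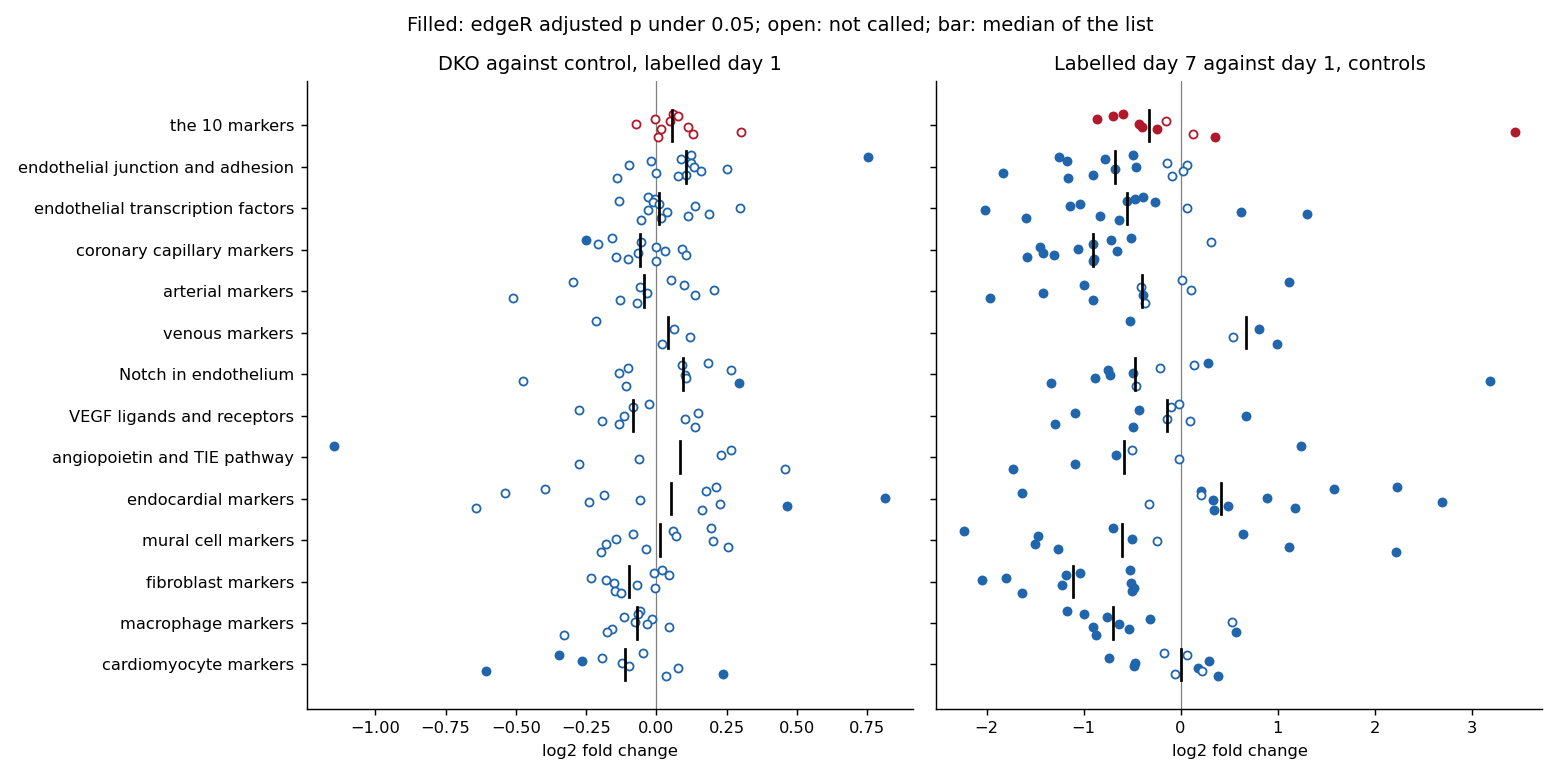
Log2 fold change of every tested gene of the 10 markers, of 9 endothelial lists and of 4 lists of other cell types, DKO against control at labelled day 1 on the left and labelled day 7 against day 1 in controls on the right; filled points have an edgeR adjusted p under 0.05 and bars are list medians. On the right the capillary list has a median of −0.90 and the endocardial list of 0.42, and on the left the angiopoietin list holds Angpt1 at −1.15.

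Between genotypes, 6 of the 89 genes tested in the endothelial lists were called at labelled day 1 and 0 at labelled day 7 by edgeR. This is a smaller share than the 17.6% of all genes called at labelled day 1 and the 1.02% at labelled day 7, and the 6 genes are given as single genes, not as a change of the lists. At an unadjusted p under 0.05 there were 21 and 10. The matching share of all genes is not given here, so nothing is read from these counts. Angpt1 ranged from 21.02 to 32.2 CPM among controls and from 9.24 to 14.9 CPM among DKO labelled day 1, and the ranges did not overlap. It fell by 1.15 ± 0.13 (adjusted p = 2.27e-05), was called in all 21 alternative fits (−1.23 to −0.997), and its genotype effect differed between the labelled ages by 0.80 ± 0.19 (adjusted p = 0.0342). About 14.2% of its exonic bases lie within Gm17473 on the opposite strand. Bulk tissue does not show which cells of the ventricle the Angpt1 reads came from. Cldn5 rose from 61.5 ± 6.599 to 104 ± 29.0 CPM (0.75 ± 0.15, adjusted p = 0.00297). Its call ended without the controls over 50 CPM of Myl7 (0.73, adjusted p = 0.122). It stayed with the mean of the atrial markers as a covariate (0.65, adjusted p = 0.0367). The endothelin receptor gene Ednrb rose by 0.46 ± 0.09, the neuregulin gene Nrg1 by 0.81 ± 0.25 and the Notch target Heyl by 0.30 ± 0.08, while the fatty acid binding protein gene Fabp4 fell by 0.25 ± 0.08. Of these, Heyl was called in 19, Nrg1 in 14 and Fabp4 in 6 of 21 alternatives. Heyl lost its call in 1 fit over all 24 libraries (adjusted p = 0.117) and without the controls over 50 CPM of Myl7 (adjusted p = 0.0736). With the atrial covariate it kept its call (0.325, adjusted p = 0.0281). Tek itself, the receptor of Angpt1, was at −0.07 ± 0.06 in the same comparison.

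Lists of other cell types were counted with labelled age in the same way, beside 27.4% of all genes rising and 25.6% falling in controls and 27.3% and 25.3% in DKO. Of 10 fibroblast markers 10 fell and 0 rose in controls (8 and 0 in DKO), and their summed level was 5427 to 7025 CPM in controls labelled day 1 and 2377 to 4370 CPM in controls labelled day 7. Of 10 mural cell markers 6 fell and 3 rose in controls (7 and 3 in DKO), with sums of 1675 to 2398 and 1385 to 2109 CPM. Of 10 macrophage markers 8 fell and 1 rose in controls (4 and 2 in DKO), with sums of 98.1 to 129 and 73.3 to 89.1 CPM. Of 10 cardiomyocyte markers 3 rose and 3 fell in controls (4 and 4 in DKO), about the background, and of 8 atrial markers 3 rose and 0 fell in controls (7 and 0 in DKO). The 10 vessel markers summed to 1125 to 1411 CPM in controls labelled day 1 and 843 to 999 CPM in controls labelled day 7, and to 1302 to 1391 and 972 to 1059 CPM in DKO. The part of a changed mix of cells in the falls was not tested.

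Lymphatic markers, a neighbouring endothelial type, gave 2 up and 1 down of 5 tested with labelled age in controls (3 and 1 in DKO), with Lyve1 at 1.42 ± 0.21 in controls. The counts with labelled age here are to be read beside 27.4% of all genes up and 25.6% down in controls, and 27.3% and 25.3% in DKO. Their sum was 107 to 133 CPM in controls labelled day 1 and 109 to 169 CPM in controls labelled day 7. Between genotypes at labelled day 1 Reln was the lymphatic gene called (−0.41 ± 0.11, adjusted p = 0.0135). Its call was lost without the controls over 50 CPM of Myl7 (−0.50, adjusted p = 0.0505) and kept with the atrial covariate (−0.507, adjusted p = 0.0106). Platelet genes, which matter for Pecam1 because platelets also carry it, summed to 17.5 to 22.4 CPM in controls labelled day 1 and 13.1 to 15.3 CPM in controls labelled day 7, with 2 up and 1 down of 6 in controls (5 and 1 in DKO). Epicardial markers gave 1 up and 1 down of 6 in controls (2 and 1 in DKO), erythroid markers 0 up and 2 down of 3 (0 and 3) and Schwann cell markers 1 up and 2 down of 5 (1 and 1). Between genotypes at labelled day 1, 9.81% of all genes were higher and 7.79% lower in DKO. Beside this, 1 of 10 cardiomyocyte markers was higher and 3 were lower, and 1 of 8 atrial markers was higher and 3 were lower. The lymphatic marker Ccl21a and the erythroid marker Alas2 had 0 counts in every library, and all their exonic bases lie within genes on the opposite strand.

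Within groups the markers varied only partly together. After each group's mean was subtracted, 34 of 45 pairs had a positive Pearson correlation of log2 CPM over the 24 libraries, with a median of 0.15 and a range of −0.57 (Kdr with Cytl1) to 0.64 (Pecam1 with Flt1). Flt1 with Tie1 (0.59) and Pecam1 with Cdh5 (0.53) were among the highest. Kdr and Flt1 had −0.16, and Tek and Tie1 0.37. These values are a description, since libraries of a group share handling and all genes of a library share its scaling.

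**Figure D5:**
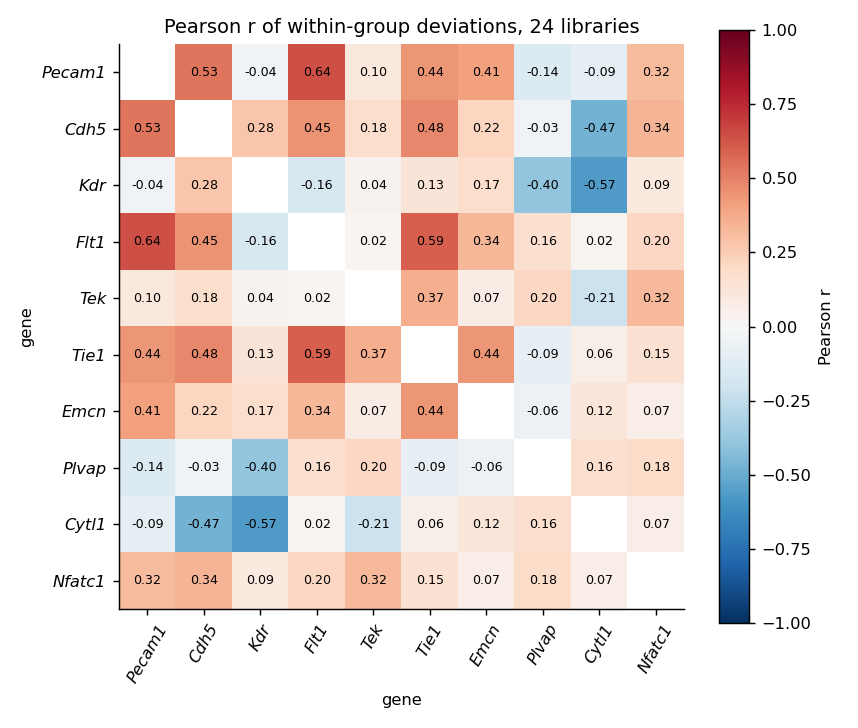
Pearson correlation of log2 CPM between each pair of markers over 24 libraries, after the mean of each group was subtracted; colour and number give r. Pecam1, Flt1, Tie1 and Cdh5 are positive with each other, from 0.44 to 0.64, while Kdr is at −0.16 with Flt1, −0.40 with Plvap and −0.57 with Cytl1.

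By the same measure, the gene nearest to each marker among 17352 was Stx3 for Pecam1 (r = 0.90), Jcad for Cdh5 (0.88), Icam2 for Kdr (0.86), Prkch for Flt1 (0.92), Zfa-ps for Tek (0.86) and Vtn for Tie1 (0.85). For Emcn it was Mug-ps1 (0.75), for Plvap Dnm2 (0.72), for Cytl1 Apba2 (0.82) and for Nfatc1 Col6a3 (0.75). Next were Rerg and Esam for Pecam1, Flot1 and Bnip3l-ps for Cdh5, Alox12 and Rasgrp3 for Kdr, and Dag1 and Ppp1r12c for Flt1. For Tek these were Sepsecs and Eif4g2, for Tie1 Ccrl2 and E030044B06Rik, for Emcn H4c8 and Plod1, and for Plvap Dtd1 and Zfp575. For Cytl1 they were Gm3173 and Trim67, and for Nfatc1 Slc39a12 and Lrrc49. Correlations of the closest genes were picked as the highest of many and are a description of these 24 libraries.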

How the data were processed

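Polyadenylated RNA of left ventricle was sequenced in 24 libraries made from 100 ng of total RNA with a low-input cDNA kit that does not mark strand, per the labels' protocols. The authors deposited raw counts of reads per gene, whole numbers with 1 column per library. STAR 2.4.2a, bcl2fastq and the build GRCm39 are named in the submitters' processing notes, and the counting tool and annotation are not given in the sources used here. Reads shared by overlapping genes may therefore be lost or misplaced, and 12380 of 39396 genes were at 0 in all libraries. The 52 genes with a blank symbol stayed in the fits under their identifiers. Gene positions and exonic lengths came from GENCODE M21 on GRCm38, which matched all 39396 identifiers, and the windows before gene starts from RefSeq on GRCm38.p6. Proteins are not analysed here.

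Genes were kept by filterByExpr (minimum count 10) over the 4 groups. TMM scaling and edgeR 4.0.16 under R 4.3.3 were used (robust quasi-likelihood F-test, Benjamini-Hochberg over all 17352 genes, threshold 0.05). The genotype fits took the 12 libraries of 1 labelled age, and labelled age and the difference of genotype effects were fitted over all 24. The SE is the size of the log2 fold change over the root of F, and 95% intervals use the t distribution with the fit's degrees of freedom. Ratios had 0.5 added to both counts. The scripts were tested on simulated data. Replicate pairs all differed by more than sampling noise.

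The markers and the 19 gene lists were chosen with earlier results of these data known. All 10 markers are named in every comparison. From other lists the genes named are among up to 3 per list and comparison past the threshold with the largest change, and likeness names the 3 highest correlations. Rhot1, Rhot2, Vegfa, Mcph1, Gm17473, Gtpbp3, Igf2, H19, Dlk1, Tnni1 and Angpt2 were added after their values were seen. Alternatives were RLE scaling, other filters, DESeq2 1.42.0, limma-voom (limma 3.58.1), a fit over all 24 libraries, covariates and leaving out libraries.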

Additional observations from a re-analysis of the deposited data

Results flagged for a closer look

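Among 64 sets of 6 libraries (10 markers and 6 ratios in 4 groups), 4 had a library whose gap to its nearest neighbour was a large part of the whole range, and chance gives this in about 1 of 20 such sets. Cdh5 was at 265.9 CPM in DKO 55, below 280.1 to 288.5 CPM in the other DKO libraries labelled day 1. Tie1 was at 122.4 CPM in control m1101, below 138.8 to 146.4 CPM in the other controls labelled day 7. The log2 ratio Plvap/Cdh5 was −5.147 in control 22, above −6.018 to −5.692 in the other controls labelled day 1, and this is the library without which Plvap was called between genotypes. The log2 ratio Nfatc1/Cdh5 was −1.564 in control m1088, above −1.895 to −1.788 in the other controls labelled day 7.

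The genotype effect differed between the labelled ages for 5 listed genes by edgeR's test of the difference, and for none of the 10 markers. These were Angpt1, the ligand of Tek, at 0.798 ± 0.187 (adjusted p = 0.0342), and the atrial genes Myl7 at 5.732 ± 1.27 (0.0313), Sln at 7.614 ± 1.646 (0.0284), Kcnj3 at 1.311 ± 0.266 (0.0152) and Dkk3 at 1.824 ± 0.378 (0.0189), all as DKO effect at labelled day 7 minus that at labelled day 1 on the log2 scale.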

How the results depend on the processing

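No paired analysis was possible because the labels give each library its own name and no number is shared between groups. The count of called markers stayed within 1.5 times its value in 111 of 112 alternative fits, and no called direction turned. Of 1120 single values of the markers in these fits, 6 lost and 3 gained a call, and of 648 single ratio values 14 lost and 5 gained one. The exception was labelled day 1 without control 22, where 1 marker, Plvap, was called between genotypes, so leaving out 1 library gave 0 to 1 there. Leaving out 1 library gave 0 to 0 at labelled day 7 and for the difference of effects, 7 to 9 for labelled age in controls and 7 to 7 in DKO. For the ratios, 11 of 24 tests passed, 10 to 13 with 1 library left out, 10 without the DKO libraries over 500 CPM of Myl7, and 5 without the controls over 50 CPM of Myl7. There the 5 tests of labelled age in controls could not pass, and Emcn/Cdh5 between genotypes at labelled day 7 kept its difference of 0.29 with an adjusted p of 0.0693. Leaving out those DKO libraries, and those controls in the comparison of labelled ages, was chosen after seeing the data. The share of all genes called moved more than the markers. Between genotypes at labelled day 7 it was 0.614% with no filter, 3.15% by DESeq2, 2.41% in 1 fit over all 24 libraries and 0.444% without the DKO libraries over 500 CPM of Myl7. For the difference of effects it was 0.349% without pseudogenes, 0.422% with no filter and 2.1% by DESeq2. With no filter it was 10.6% between genotypes at labelled day 1 and 33.7% and 33.8% for labelled age in controls and DKO. Cytl1, and Plvap at labelled day 1, had the fewest counts and the widest intervals.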
